A study of Mus musculus with 7 samples.

Results

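Janus kinases and STAT factors were examined at the level of their transcripts in LLC1, a mouse Lewis lung carcinoma line, with the RNA helicase Ddx54 lowered or not. The group consisted of 8 genes chosen by name, 3 kinases (Jak1, Jak2, Tyk2) and 5 transcription factors (Stat2, Stat3, Stat5a, Stat5b, Stat6), out of 24419 genes in the count table. All 8 passed the filter on low counts, as did 11594 genes in all. Cultured cells were grown in DMEM with fetal bovine serum, and polyadenylated RNA was sequenced from 3 libraries of cells carrying an shRNA against Ddx54 and from 4 libraries of wild-type cells. The labels name no shRNA sequence and no construct in the wild-type cells, nor do they say whether the knockdown cells were a clone or a pool. Nothing in the labels says whether the libraries came from separate cultures, so the p-values measure the spread between these libraries, which may be technical. The title of the study concerns DDX54 and PD-1 blockade in lung tumours, and the comparison of the cultured cells looks at transcripts made by the tumour line itself.

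Janus kinases are tyrosine kinases held on the cytoplasmic tails of cytokine and interferon receptors. When a ligand brings the receptor chains together, the kinases phosphorylate the tails and the STAT proteins that dock there, and the STATs then dimerise, enter the nucleus and bind DNA. Several of the SOCS proteins, induced by the STATs themselves, switch the receptors off again. In tumour cells the pathway carries signals of interferons, which raise antigen presentation, and of cytokines of the interleukin-6 family, which act mainly through STAT3.

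Ddx54 was at 45.9, 39.2 and 45.8 CPM (library-size-scaled counts with TMM factors) in the knockdown libraries, against 80.4, 82.5, 78.6 and 83.2 CPM in the wild-type libraries, so no library went against its label. Total counts were 14987324 to 17702932 in knockdown and 15293346 to 18673395 in wild-type libraries, of which the 8 genes took 8994 to 10732 and 10032 to 12623. Rn45s, the 45S pre-ribosomal RNA, took 7.96 to 9.07% of counts in knockdown and 10.7 to 12.5% in wild-type libraries. Leaving it out of the fit changed no call on the 8 genes. That removes only its own row, so whether the difference in ribosomal RNA bears on other genes was not tested. Of the epithelial and lung genes in a list for the line, Krt18 (131.7 ± 4.02 CPM in knockdown and 217.5 ± 4.77 CPM in wild-type; SD, n = 3 and n = 4) and Krt8 (23.6 and 20.3 CPM) were present, whereas Epcam and Cdh1 were at 0.05 CPM or less in both groups and Nkx2-1 had no count in any library. Leukocyte markers were at trace counts. The 15 leukocyte markers summed to 3.12 to 4.78 CPM in knockdown and 2.56 to 5.23 CPM in wild-type libraries, most of it Cd68, and Cd3e, Spi1, Vav1 and Nkg7 had no count. The 9 endothelial markers summed to 0.71 to 1.19 and 1.07 to 3.19 CPM. Of 10 fibroblast markers, Col3a1 was at 1059 CPM in knockdown and 1105 CPM in wild-type, while Postn and Thy1 had no count. These are bulk libraries, in which fewer cells of a kind and less RNA per cell cannot be told apart.

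The sequences below are the 250 bases before the RefSeq transcription start (build GRCm38.p6) of selected genes, 5′ to 3′ on the gene's own strand. Jak1 and Stat3 are shown because they were the members whose transcripts fell, and Stat2 for its interferon-type element. Socs3, which also fell, is shown because it alone held TTCNNNGAA among the SOCS genes searched, which were 4 of the 8 tested. Windows were found for all 8 members. In Jak1 (chr4:101265224-101265473, minus strand) and Stat3 (chr11:100939541-100939790, minus strand) capitals mark a CCAAT box on either strand. In Stat2 (chr10:128270248-128270497, plus strand) they mark an interferon-type element (GAAA repeated with 2 bases between, here on the other strand), a STAT-type site with a wider spacer (TTC and GAA with 4 bases between) and CCAAT boxes. In Socs3 (chr11:117969367-117969616, minus strand) they mark the canonical STAT site TTCNNNGAA only.
Jak1: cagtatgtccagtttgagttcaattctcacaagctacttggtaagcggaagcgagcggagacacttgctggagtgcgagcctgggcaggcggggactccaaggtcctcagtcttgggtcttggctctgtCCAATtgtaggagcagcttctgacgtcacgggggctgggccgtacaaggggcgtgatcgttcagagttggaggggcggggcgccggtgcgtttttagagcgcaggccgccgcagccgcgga
Stat3: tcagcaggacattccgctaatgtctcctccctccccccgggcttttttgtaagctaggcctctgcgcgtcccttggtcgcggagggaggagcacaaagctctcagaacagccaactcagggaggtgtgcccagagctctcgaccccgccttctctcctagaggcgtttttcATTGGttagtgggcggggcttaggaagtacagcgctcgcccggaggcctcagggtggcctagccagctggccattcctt
Stat2: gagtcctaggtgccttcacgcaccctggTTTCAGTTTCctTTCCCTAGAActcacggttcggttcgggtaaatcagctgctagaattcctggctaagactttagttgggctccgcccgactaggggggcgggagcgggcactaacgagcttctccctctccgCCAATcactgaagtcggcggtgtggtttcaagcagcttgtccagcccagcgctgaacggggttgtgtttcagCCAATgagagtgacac
Socs3: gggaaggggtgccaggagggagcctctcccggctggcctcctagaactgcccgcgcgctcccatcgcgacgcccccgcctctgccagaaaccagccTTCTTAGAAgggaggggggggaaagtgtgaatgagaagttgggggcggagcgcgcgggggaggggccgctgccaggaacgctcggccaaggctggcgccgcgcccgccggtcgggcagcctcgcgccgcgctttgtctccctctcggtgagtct

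Both strands were searched in the 250 bases of each window, and a match is a description of letters only. Of 32851 such windows in the RefSeq table, 7.02% held TTCNNNGAA, 5.85% its form with the wider spacer, 2.98% the interferon-type element and 33.9% CCAAT. No window of the 8 members held TTCNNNGAA. Stat2 alone among the members held the interferon-type element, starting at position -222 from the transcription start. Its match to the wider-spaced STAT site began at position -210. CCAAT was found at position -121 in Jak1 and -79 in Stat3, and also in Tyk2 and Stat2, which did not pass the test. Among the STAT3 target genes tested, 13 had a window and only Socs3 held TTCNNNGAA, at position -154. Among the interferon-factor target genes 9 had a window, of which Ifit2, Bst2 and Eif2ak2 held TTCNNNGAA and Ifit3 and Bst2 held the interferon-type element.

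Jak1 and Stat3 were lower with Ddx54 knocked down, and the other 6 members did not pass the test. Thus 2 of 8 members fell, where 15.3% of all tested genes fell, and 0 of 8 rose, where 14.1% of all tested genes rose (edgeR quasi-likelihood test, Benjamini-Hochberg adjusted over 11594 genes, threshold 0.05). At an unadjusted p under 0.05 there was also no rise among the members, and DESeq2 and limma-voom likewise called none higher. In either direction 2 of 8 members were called, against 29.4% of all tested genes, a share near the background. The groups' CPM ranges did not overlap for 2 of 8 members, against 35.1% of all tested genes. The median log2 fold change was 0.04 over the members and 0.001 over all tested genes. Log2 fold changes are knockdown over wild-type throughout.

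Jak1, the kinase shared by the receptors of interferons, of the interleukin-6 family and of the common gamma chain, is a protein-coding gene of chromosome 4 (101152367 to 101265282, minus strand, GRCm38/mm10, ENSMUSG00000028530.14). It was at 375, 385 and 398 CPM in the knockdown libraries, against 486, 485, 479.8 and 491 CPM in the wild-type libraries. Every knockdown library lay below every wild-type library, and the gap between the groups was several times the spread within either. The knockdown level was 79.5% of wild-type (386 ± 11.6 and 485 ± 4.73 CPM; SD, n = 3 and n = 4), a log2 fold change of -0.33 (SE 0.059, 95% interval -0.45 to -0.21, adjusted p = 4.74e-05, edgeR). With 6116 to 7100 counts per knockdown library and 7135 to 8910 per wild-type library, Jak1 was the most deeply counted member.

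Jak2, the kinase of the growth hormone, erythropoietin and leptin receptors, is a protein-coding gene of chromosome 19 (29251828 to 29313080, plus strand, ENSMUSG00000024789.13). It was at 32.7, 32.6 and 29.1 CPM in knockdown, against 28.5, 26.8, 34.9 and 29.6 CPM in wild-type libraries. The ranges overlapped, with the highest value in wild-type replicate 3, and the log2 fold change was 0.07 (95% interval -0.19 to 0.34, adjusted p = 0.732, edgeR). Tyk2, the kinase of the type I interferon and interleukin-12 receptors, is a protein-coding gene of chromosome 9 (21104068 to 21131243, minus strand, ENSMUSG00000032175.11). It was at 25.1, 14.8 and 25.3 CPM in knockdown, against 21.1, 17.6, 19.9 and 18.9 CPM in wild-type libraries. Knockdown replicate 2 was the lowest of all 7 libraries while the other knockdown libraries were the highest, which gave a log2 fold change of 0.16 (95% interval -0.19 to 0.51, adjusted p = 0.528). Without knockdown replicate 2 the value was 0.38 (adjusted p = 0.121). Exons of the antisense gene 1700084C06Rik overlap those of Tyk2 and share 7.14% of its 50-base words, and with the strand setting of the counting not given their reads cannot be told apart.

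Stat3, the factor through which the interleukin-6 family acts, is a protein-coding gene of chromosome 11 (100885098 to 100939540, minus strand, ENSMUSG00000004040.16). It was at 55.7, 60.1 and 59.7 CPM in the knockdown libraries, against 73.9, 78.2, 85.4 and 79.7 CPM in the wild-type libraries. All knockdown libraries lay below all wild-type libraries, with a narrow spread in knockdown. The level was 73.7% of wild-type (58.5 ± 2.45 and 79.3 ± 4.76 CPM; SD, n = 3 and n = 4), and the log2 fold change of -0.44 had a 95% interval from -0.63 to -0.25 (adjusted p = 0.000345, edgeR).

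Stat5a and Stat5b, near-duplicate factors of growth hormone, prolactin and interleukin-2 signals, lie beside Stat3 on chromosome 11. Stat5b spans 100780731 to 100850724 on the minus strand (ENSMUSG00000020919.11) and Stat5a spans 100859351 to 100885169 on the plus strand (ENSMUSG00000004043.14), ending in an exon that overlaps the 3′ end of Stat3. Stat5b was at 27.6, 33.2 and 23.5 CPM in knockdown, against 21.8, 30.7, 22.6 and 33.2 CPM in wild-type libraries. The values of the groups interleaved (log2 fold change 0.06, 95% interval -0.26 to 0.37, adjusted p = 0.828, edgeR). Stat5a was at 1.73, 2.88 and 5.27 CPM in knockdown, against 3.11, 2.72, 4.77 and 2.84 CPM in wild-type libraries. These levels rest on 29 to 81 counts in knockdown and 40 to 73 in wild-type libraries, and the interval of -0.86 to 0.80 around its log2 fold change of -0.03 leaves a change of either sign undetected at this depth. Of the 50-base words of Stat5b transcripts 10.98% are also in Stat5a, and of those of Stat5a 8.21% are in Stat5b. How reads from these shared stretches were counted is not stated.

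Stat2, which pairs with Irf9 to carry type I interferon signals, is a protein-coding gene of chromosome 10 (128270559 to 128292849, plus strand, ENSMUSG00000040033.16). It was at 5.37, 5.21 and 4.94 CPM in knockdown, against 5.94, 3.60, 5.95 and 4.74 CPM in wild-type libraries. The knockdown values lay within the wild-type range (log2 fold change 0.03, 95% interval -0.57 to 0.64, adjusted p = 0.956, edgeR), on 53 to 109 counts per library. Stat6, the factor of interleukin-4 and interleukin-13, is on the same chromosome (127642986 to 127660957, plus strand, ENSMUSG00000002147.18). It was at 57.1, 48.3 and 39.4 CPM in knockdown, against 48.0, 37.1, 36.9 and 47.3 CPM in wild-type libraries. Its highest value was in knockdown replicate 1, the ranges overlapped, and the log2 fold change of 0.19 (95% interval -0.07 to 0.45, adjusted p = 0.293) was 0.05 without that library. The 3′ end of Stat6 overlaps that of Nab2 on the other strand.

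**Figure D1:**
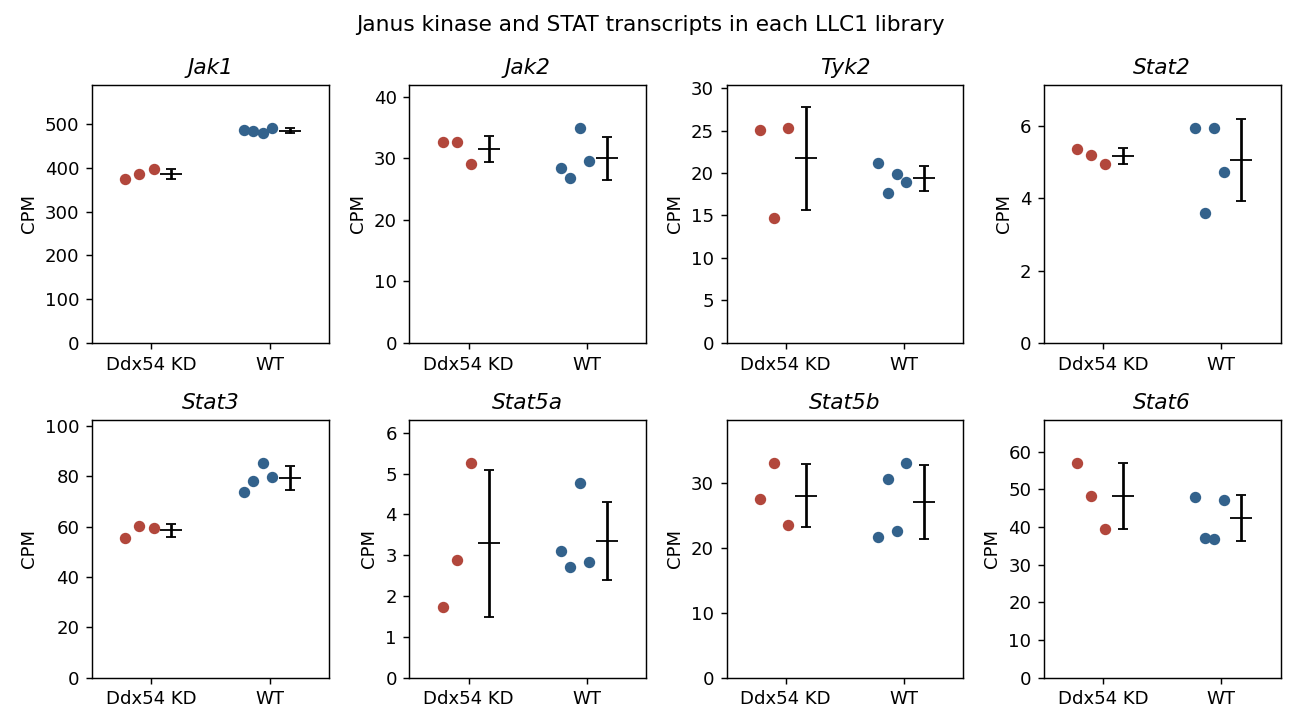
CPM of each kinase and STAT gene (y axis, from 0) in every library, with Ddx54 knockdown (red, n = 3) and wild-type (blue, n = 4) points and the mean ± SD in black. For Jak1 and Stat3 all red points lie below all blue points, at 375 to 398 against 479.8 to 491 CPM and at 55.7 to 60.1 against 73.9 to 85.4 CPM, and in the other 6 panels the groups overlap.

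**Figure D2:**
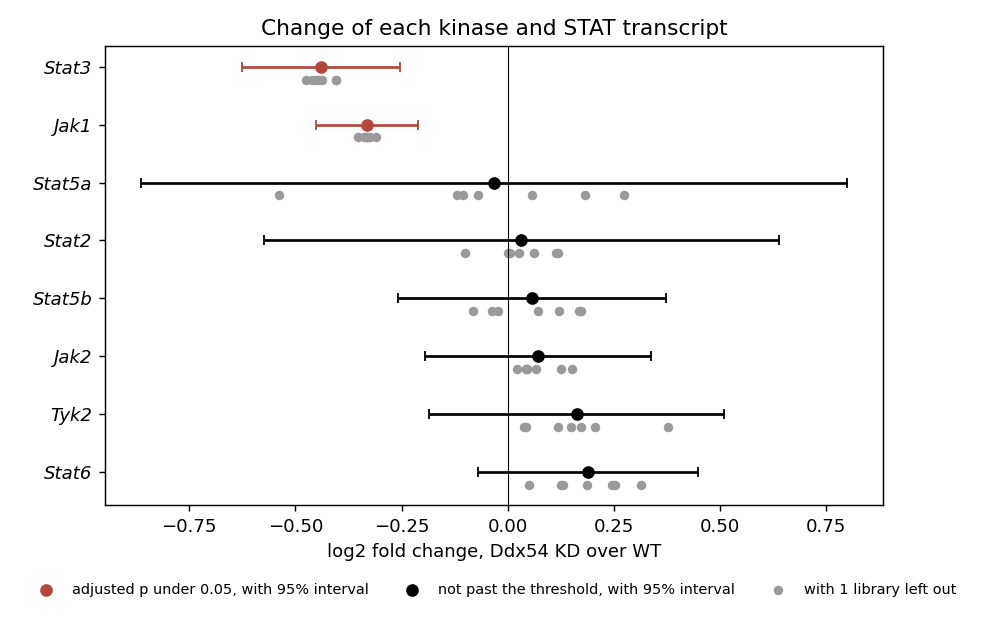
Log2 fold change of each member, Ddx54 knockdown over wild-type (x axis), with its 95% interval, in red where the adjusted p was under 0.05. Grey points are the values with 1 library left out: they stay between -0.35 and -0.31 for Jak1 and between -0.47 and -0.40 for Stat3, and run from -0.54 to 0.27 for Stat5a.

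The 2 genes that fell did so by similar amounts. Within libraries the log2 ratio of Jak1 to Stat3 CPM was 2.71 ± 0.037 in knockdown and 2.61 ± 0.093 in wild-type (SD, n = 3 and n = 4), a difference of 0.11 with overlapping ranges (exact two-sided permutation test over 35 splits, p = 0.143). All 28 ratios between members were compared in this way. The groups' ranges were apart for 6 ratios, those of Jak1 to Jak2, Stat2 and Stat6 and of Stat3 to Jak2, Stat2 and Stat6. Relative to Stat6, Jak1 was lower by a difference of -0.51 in knockdown (3.002 ± 0.31 and 3.515 ± 0.20). Jak2 relative to Stat3 was higher by 0.51 (-0.89 ± 0.13 and -1.40 ± 0.10). These last comparisons reached p = 0.0286, the smallest that the exact permutation test can give, and none of the 28 passed after adjustment (smallest adjusted p = 0.267). With that floor a ratio could pass only if many reached it together, so the adjusted values do not show that the ratios were unchanged. Stat3 relative to its neighbour Stat5b differed by -0.50 with overlapping ranges (p = 0.143, exact permutation test).

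Per length, Jak1 stood far above the rest of the group. Dividing CPM by the summed length of all annotated exons (RPKM, CPM per kilobase), Jak1 was at 53.4 ± 1.602 RPKM in knockdown and 67.2 ± 0.65 RPKM in wild-type (SD, n = 3 and n = 4), at the 92.2 and 93.8 percentile of 11170 tested genes with a length. Next came Stat6, at 10.97 ± 2.01 RPKM in knockdown and 9.62 ± 1.399 RPKM in wild-type, and Stat3, at 6.14 ± 0.26 and 8.33 ± 0.50 RPKM. Jak2 was at 6.26 ± 0.41 and 5.95 ± 0.69 RPKM, and Stat5b at 5.08 ± 0.88 and 4.89 ± 1.03 RPKM. Tyk2 followed at 3.17 ± 0.88 and 2.82 ± 0.22 RPKM, ahead of Stat2 at 0.87 ± 0.036 and 0.85 ± 0.19 RPKM and Stat5a at 0.46 ± 0.25 and 0.47 ± 0.13 RPKM.

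Neighbours in the order that overlapped in the knockdown libraries were Jak2 with Stat3 and Stat3 with Stat5b, and in the wild-type libraries Stat6 with Stat3, Jak2 with Stat5b and Stat2 with Stat5a. With the length of all annotated exons, Stat3 was thus above Jak2 in wild-type, whereas their ranges overlapped in knockdown. The place of Stat3 depends on the length used, since all its annotated exons sum to 9527 bases and its principal transcript to 4516 bases. With the length of the longest principal transcript, an alternative chosen after seeing the data, Stat3 was at 12.95 ± 0.54 RPKM in knockdown and 17.6 ± 1.05 RPKM in wild-type, against 12.8 ± 2.34 and 11.2 ± 1.63 RPKM for Stat6. On that scale Stat3 was above Stat6 in wild-type without overlap, and the ranges of both genes overlapped in knockdown. Stat3 was then above Jak2 without overlap in both groups, with Jak2 at 6.26 RPKM in knockdown and 5.95 RPKM in wild-type.

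Jak1 made up 83.6, 86.1 and 85.3% of the summed RPKM of the 3 kinases in knockdown, against 88.5, 89.5, 87.1 and 88.7% in wild-type libraries (exact permutation test, two-sided, p = 0.0286, adjusted p = 0.114 over 8 such shares). That sum was 62.8 ± 1.47 RPKM in knockdown and 75.9 ± 0.71 RPKM in wild-type. Stat3 made up 26.3 ± 3.21% of the summed RPKM of the 5 STAT members in knockdown and 34.6 ± 3.24% in wild-type (p = 0.0286, adjusted p = 0.114, exact permutation test). With the principal transcript lengths these Stat3 shares were 39.2 and 48.9%. The sum over the STAT members was 23.5 ± 2.15 and 24.2 ± 1.497 RPKM, with overlapping ranges.

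**Figure D3:**
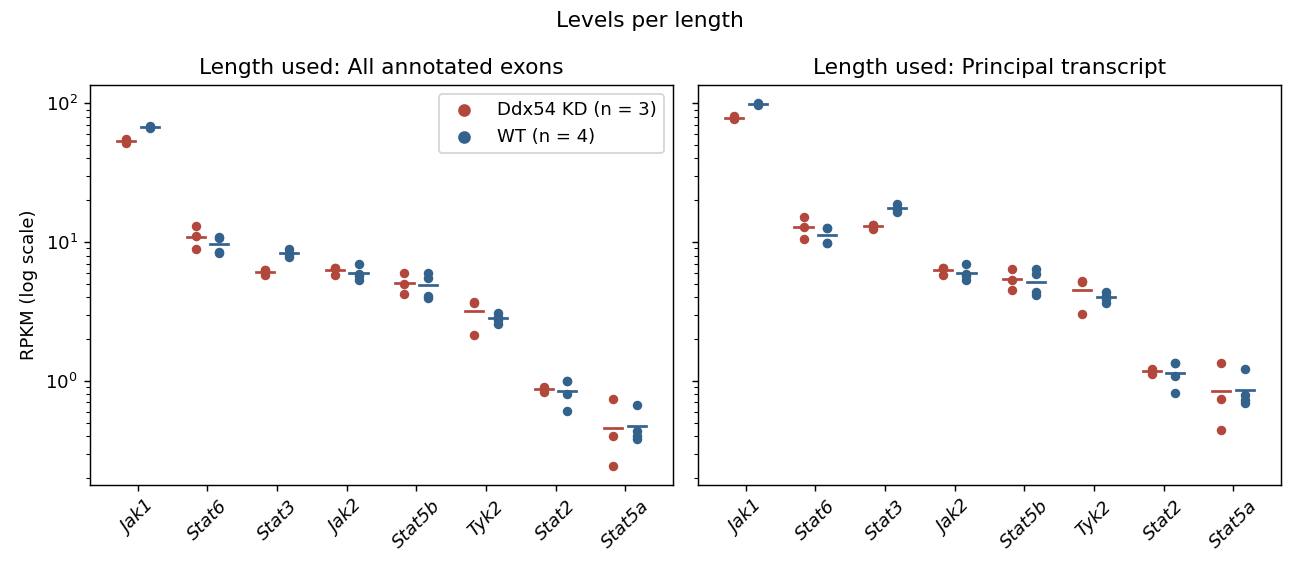
RPKM on a log axis of each member in every library, Ddx54 knockdown in red and wild-type in blue, with group means as lines, using all annotated exons (left) or the principal transcript (right) as the length. Jak1 is the highest in both panels, at 53.4 and 67.2 RPKM on the left. On the left Stat3 stands below Stat6 in knockdown, and their ranges overlap in wild-type. On the right Stat3 stands above Stat6 in wild-type, and their ranges overlap in knockdown.

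Among 8063 other genes with a mean of at least 10 CPM, those whose centred log2 CPM over the 7 libraries lay nearest to that of Jak1 were Fech, Arhgap12 and the thrombin receptor gene F2r, at root mean square differences of 0.031, 0.032 and 0.034. Nearest to Stat3 were the beta-arrestin gene Arrb2, Hpcal1 and Taf1b, at 0.039, 0.049 and 0.050. F2r was at 303, 301 and 319 CPM in knockdown, against 401, 402, 403.5 and 393 CPM in wild-type libraries, and Arrb2 at 55.1, 65.4 and 63.6 CPM against 78.9, 82.1, 89.9 and 83.95 CPM. Being chosen for their likeness to genes that fell, these genes were lower in knockdown by that choice. Fech lost its call with the replicate block (adjusted p = 0.0605, edgeR) and without knockdown replicate 1 (adjusted p = 0.0772).

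The rest of the pathway was taken from 12 lists of ligands, receptors, inhibitors, adaptors and target genes, chosen with earlier results of these data known. Of 170 listed genes 87 could be tested, each counted once, and 23 fell, 8 rose and 56 did not pass (edgeR adjusted p under 0.05), against 15.3% of all tested genes lower and 14.1% higher. Their median log2 fold change was -0.09. The count of each list below stands beside these same shares over all tested genes.

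Most ligand genes had few or no counts, with 6 of 37 tested and 22 without a count in any library. Il11, an interleukin-6 family cytokine, fell to 18.4, 15.1 and 17.2 CPM in knockdown, against 34.2, 32.0, 31.4 and 32.7 CPM in wild-type libraries (log2 fold change -0.95, SE 0.14, adjusted p = 2.86e-06). It was the only ligand that passed. Ctf1, which encodes cardiotrophin-1 of the same family, was at 7.34, 5.32 and 6.64 CPM in knockdown, against 5.40, 4.55, 2.68 and 2.60 CPM in wild-type, and did not pass (0.75, adjusted p = 0.0739). Once GC and length were corrected for, it passed (0.86, adjusted p = 0.0382), as it did when wild-type replicate 1 was dropped (0.97, adjusted p = 0.0305).

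Of 39 receptor genes 17 were tested, and 4 fell and 0 rose, against 15.3% of all tested genes lower and 14.1% higher, with a median log2 fold change of -0.11. Il4ra, the signalling chain for interleukin-4 and interleukin-13, fell to 34.0, 26.97 and 29.8 CPM in knockdown, against 51.7, 62.5, 49.4 and 42.6 CPM in wild-type libraries (-0.77, SE 0.13, adjusted p = 1.81e-05). The ligand-binding chain of the interferon-gamma receptor, Ifngr1, fell to 16.5, 22.7 and 17.95 CPM, against 30.8, 29.3, 29.0 and 34.4 CPM (-0.69, SE 0.15, adjusted p = 0.000383). Both genes were lower in every knockdown library than in any wild-type library.

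Ifnar2, the chain of the type I interferon receptor that binds Jak1, was at 48.6, 49.6 and 47.1 CPM in knockdown, against 61.5, 65.3, 64.3 and 70.04 CPM in wild-type (-0.43, SE 0.099, adjusted p = 0.000943). Ghr, the growth hormone receptor, was at 20.9, 26.6 and 22.05 CPM, against 35.3, 34.7, 36.1 and 32.3 CPM (-0.57, SE 0.13, adjusted p = 0.00108). The partner chains of the interferon receptors did not pass, with Ifnar1 at 0.03 (adjusted p = 0.930) and Ifngr2 at -0.18 (adjusted p = 0.402). Whether the partner chains differ from Ifnar2 and Ifngr1 in their change was not tested.

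None of 4 tested receptor genes of the gp130 type passed. The shared chain Il6st was at 15.2 CPM in knockdown and 14.9 CPM in wild-type on average, with a log2 fold change of 0.03 and a 95% interval from -0.33 to 0.38. Il6ra was at 26.97, 25.02 and 23.7 CPM in knockdown, against 22.5, 16.8, 21.5 and 17.6 CPM in wild-type. Its ranges were apart, but it passed only without wild-type replicate 1 (0.43, adjusted p = 0.0379), against 0.36 (adjusted p = 0.0711) with all libraries. Lifr (1.64, adjusted p = 0.181), Il15ra (-1.26, adjusted p = 0.0811) and Epor (0.04, adjusted p = 0.979) were at under 3 CPM in both groups on average, and the call on Il15ra was made by DESeq2 only (-1.27, adjusted p = 0.0238).

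Inhibitors of the SOCS family fell in 4 of 8 cases and rose in 0. Socs2, induced by STAT5 downstream of growth hormone, was at 16.4, 19.4 and 15.5 CPM in knockdown, against 42.5, 45.6, 51.6 and 44.8 CPM in wild-type libraries (log2 fold change -1.43, SE 0.13, adjusted p = 3.47e-10). Socs3, induced by STAT3 and an inhibitor of gp130 and Jak1, was at 75.2, 55.1 and 66.4 CPM, against 98.2, 107.1, 93.9 and 103 CPM (-0.62, SE 0.095, adjusted p = 4.8e-06). The fall of Socs2, to 37.1% of wild-type, was the largest in the family.

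Socs5 was at 25.1, 21.5 and 23.8 CPM in knockdown, against 38.4, 34.5, 38.6 and 38.4 CPM in wild-type (-0.68, adjusted p = 0.000104). Socs6 was at 95.6, 80.2 and 92.2 CPM, against 104, 109.6, 111 and 111 CPM (-0.29, adjusted p = 0.00652), and it lost the call without knockdown replicate 2 (-0.22, adjusted p = 0.092). Cish, a STAT5-induced member of the family, was at 1.36 and 1.33 CPM on average and did not pass (adjusted p = 0.976).

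Among 12 other inhibitors tested, 2 fell and 1 rose. Sh2b3, which encodes the adaptor LNK that restrains Jak2, was at 48.9, 50.2 and 51.3 CPM in knockdown, against 78.4, 71.2, 99.1 and 88.7 CPM in wild-type libraries (-0.75, SE 0.10, adjusted p = 6.5e-07). The phosphatase gene Ptpn2, whose product acts on Jak1 and STATs, was at 63.0, 68.7 and 66.2 CPM, against 71.8, 79.4, 82.6 and 78.0 CPM (-0.24, adjusted p = 0.0419). Cbl, which encodes a ubiquitin ligase of tyrosine kinases, was higher in knockdown, at 39.4, 45.1 and 46.8 CPM, against 36.1, 24.5, 35.6 and 35.3 CPM (0.41, adjusted p = 0.0162). Ptpn2 lost its call in 9 of 18 alternative settings (adjusted p up to 0.153). The call on Cbl was lost without wild-type replicate 2 (0.29, adjusted p = 0.072), without knockdown replicate 2 (0.39, adjusted p = 0.0695) and without knockdown replicate 3 (0.36, adjusted p = 0.0869).

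Of 12 adaptors and cofactors 4 rose, 2 fell and 6 did not pass, against 14.1% of all tested genes higher and 15.3% lower. Across the alternative settings 2 to 4 were higher and 0 to 2 lower, and with the replicate number as a block 2 were higher and 0 lower. Irf9, the DNA-binding partner of Stat2, was at 14.4, 9.55 and 10.3 CPM in knockdown, against 3.71, 8.42, 4.71 and 6.99 CPM in wild-type (0.94, SE 0.26, adjusted p = 0.00539), and lost the call without knockdown replicate 1 (0.74, adjusted p = 0.0822). Nmi, which encodes a STAT-binding protein, was at 18.02, 18.1 and 15.2 CPM, against 9.38, 9.92, 10.3 and 12.6 CPM (0.70, SE 0.19, adjusted p = 0.00384). Stam2 (0.34, adjusted p = 0.0283) and Gab1 (0.30, adjusted p = 0.0379) also rose, and the coactivator Ncoa1 (-0.45, adjusted p = 0.0301) and Shc1 (-0.28, adjusted p = 0.0289) fell. Gab1 and Shc1 were named after their values were seen. These 4 calls were not stable: Stam2, Gab1 and Shc1 each lost theirs in 7 of 18 alternative settings (adjusted p up to 0.148, 0.225 and 0.136) and Ncoa1 in 5 (up to 0.139).

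Of 16 tested genes on the STAT3 target list 11 fell, 2 rose and 3 did not pass, with a median log2 fold change of -0.62. Bcl3, a partner of NF-kB, was at 3.10, 2.44 and 2.21 CPM in knockdown, against 5.45, 8.90, 6.21 and 5.98 CPM in wild-type (-1.35, SE 0.32, adjusted p = 0.00147). Cebpd, an acute-phase transcription factor, was at 6.44, 5.26 and 3.64 CPM, against 9.10, 17.6, 13.1 and 10.8 CPM (-1.30, SE 0.25, adjusted p = 0.000158). Pim1, a survival kinase, was at 19.4, 14.4 and 18.3 CPM, against 34.8, 33.2, 25.4 and 32.3 CPM (-0.86, SE 0.15, adjusted p = 4.26e-05). Each of these genes was lower in all knockdown libraries than in any wild-type library.

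Myc, a growth-promoting transcription factor gene, was at 69.03, 80.05 and 75.8 CPM in knockdown, against 178, 126, 157 and 144 CPM in wild-type libraries (-1.01, SE 0.093, adjusted p = 3.31e-10, edgeR). The list's rises, named after their values were seen, were Birc5 (0.56, adjusted p = 1.8e-08), which encodes the mitotic protein survivin, and the survival gene Mcl1 (0.24, adjusted p = 0.0107), which lost its call without knockdown replicate 1 (0.20, adjusted p = 0.0791). Many of the genes on the list answer to other factors as well, and their dependence on Stat3 was not measured here.

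Of 10 STAT5 targets tested 3 fell and 0 rose, namely Socs2, Pim1 and Bcl2l1, which encodes the survival protein BCL-XL. Bcl2l1 was at 59.8, 67.9 and 65.8 CPM in knockdown, against 102, 124, 109 and 120.1 CPM in wild-type libraries (-0.82, SE 0.088, adjusted p = 6.88e-09), and it stands on the STAT3 list too, as does Pim1. Of 4 STAT6 targets tested 2 fell, Il4ra and Klf4. Il4ra is also on the STAT3 list and among the receptors, so the list counts share genes and are not independent. The transcription factor gene Klf4 was at 29.1, 33.3 and 28.5 CPM, against 57.2, 63.0, 53.9 and 59.9 CPM (-0.95, SE 0.11, adjusted p = 5.93e-08). Among 13 tested targets of the Stat2 and Irf9 complex 0 fell and 2 rose, Irf9 itself and Eif2ak2, which encodes the RNA-activated kinase PKR. Eif2ak2 was at 35.9, 32.1 and 28.9 CPM in knockdown, against 24.6, 17.7, 22.3 and 24.6 CPM in wild-type (0.53, SE 0.14, adjusted p = 0.00433). The remaining 11 did not pass, and the list's median was 0.15. This count is near the 14.1% of all tested genes that rose, and 1 to 3 were higher across the alternative settings.

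**Figure D4:**
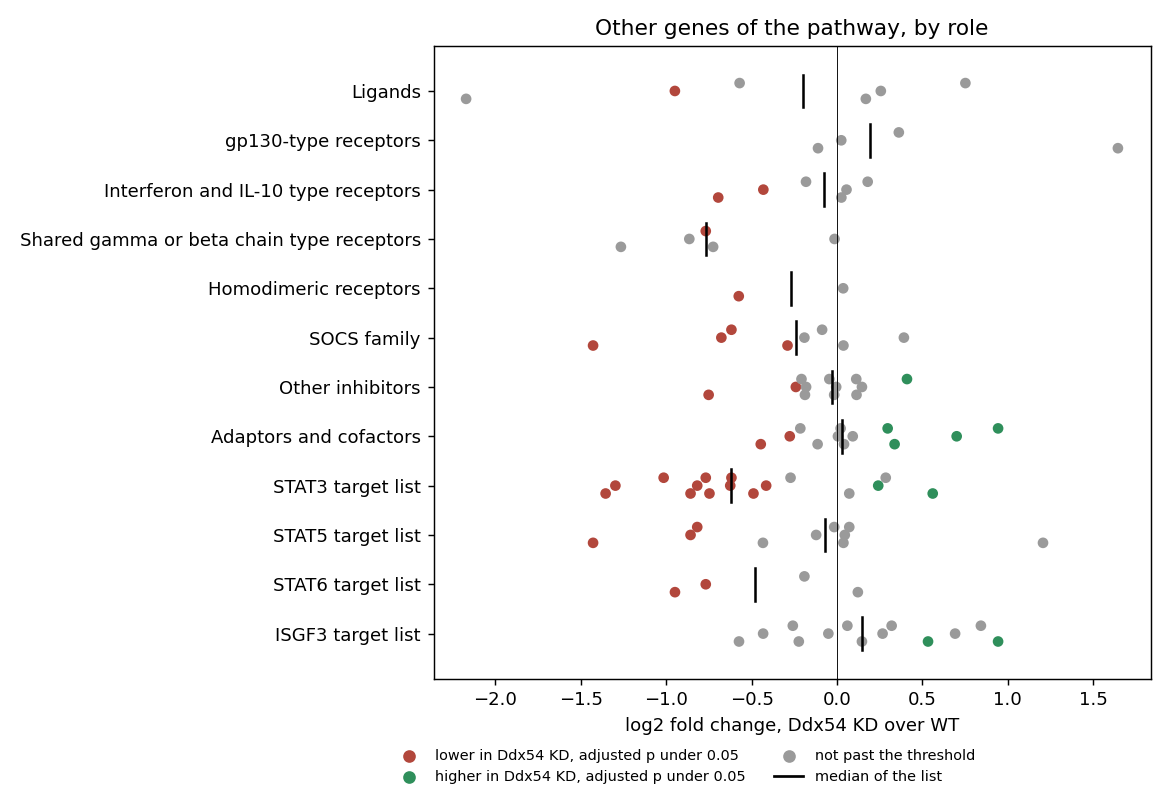
Log2 fold change, Ddx54 knockdown over wild-type (x axis), of every tested gene in 12 pathway lists (rows), with falls past the threshold in red, rises in green and other genes in grey, and the list median as a black bar. Red points make up 11 of 16 in the STAT3 target list (median -0.62) and 4 of 8 in the SOCS family. The row of the Stat2 and Irf9 complex (ISGF3) holds 0 red points and 2 green points. Of all tested genes 15.3% were lower and 14.1% higher. The lists share genes and were chosen with earlier results of these data known.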

How the data were processed

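Raw read counts per gene symbol were used as the authors deposited them. The submitters' processing notes list Trimmomatic, STAR and HTSeq and the build mm10, without roles or versions. The gene annotation, strand setting and treatment of multiply mapped reads are stated in no source used here. The table has 0 sample columns beyond the 7 used. Single-cell data of the series were not analysed here.

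Counts were fitted with edgeR 4.0.16 in R 4.3.3 over the whole table (filterByExpr on group, TMM factors, robust quasi-likelihood test, no covariate, Benjamini-Hochberg, threshold 0.05), 3 knockdown against 4 wild-type libraries. Standard errors were taken from each fold change and its F statistic (|log2 fold change| over the root of F), and 95% intervals built on it are approximate. CPM uses the fit's effective library sizes, and ratios within libraries used log2(CPM + 0.5). RPKM divides CPM by exon lengths from GENCODE M21 (GRCm38), matched by symbol for 96.3% of tested genes. Shared 50-base words were counted over GENCODE transcripts. Intervals and counts of few reads carry counting error besides the spread between libraries.

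The members and lists were chosen with earlier results of these data known. Besides the members and Ddx54, the rule for naming took in each list up to 4 genes past the threshold with the largest change, or, in lists with under 2 such genes, the 2 ranked first by p, the 3 genes nearest in pattern to each member that passed, and genes beside or overlapping a member. Alternatives were DESeq2 1.42.0, limma-voom (limma 3.58.1), factors by RLE or upper quartile, testing without the low-count filter or with a minimum of 50 counts in 3 libraries, a block for the replicate number, a GC and length correction (loess span 0.5) with and without the block, equal depth, removal of Rn45s, and leaving out each library. Replicate libraries differed by more than sampling noise in every pair (chi-square per degree of freedom 7.64 to 15.0). The smallest p of the exact permutation test over 35 splits is 0.0286. Ratios and shares could therefore pass adjustment only if many of them reached that value together.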

Additional observations from a re-analysis of the deposited data

Results flagged for a closer look

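In the 4 wild-type libraries, 59 genes named by the rule were searched for a library far from the others, and 4 had one (about 2.95 would by chance). Wild-type replicate 2 stood apart for Cbl, at 24.5 CPM against 35.3 to 36.1 CPM in the other wild-type libraries, and without it Cbl lost its call (log2 fold change 0.29, adjusted p = 0.072, edgeR). The same library had 34.5 CPM of Socs5 against 38.4 to 38.6 CPM, and Socs5 kept its call in all 18 alternative settings. It also had 2.99 CPM of the endothelial marker Plvap against 0.49 to 0.89 CPM, on a gene that did not pass. Wild-type replicate 3 had 3.66 CPM of Krt19 against 4.52 to 4.69 CPM. None of the 8 kinase and STAT genes was among them.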

How the results depend on the processing

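Jak1 and Stat3 kept their direction and call in all 18 alternative settings, with log2 fold changes from -0.35 to -0.31 (adjusted p up to 0.00143) and from -0.47 to -0.40 (adjusted p up to 0.00511), and Ddx54 did so from -0.93 to -0.80. The other 6 members passed in no setting. Stat5a turned to 0.035 with the GC and length correction. Leaving out 1 library gave -0.54 to 0.27 for Stat5a, -0.082 to 0.17 for Stat5b and -0.10 to 0.12 for Stat2, and the cause was not tested. Elsewhere the sign turned in genes that did not pass: Epor (-0.083), Cd68 (-0.015) and Cish (-0.013) with the replicate block, Ifnar1 (-0.0064) at equal depth, and Ghdc (0.034) with the block and the correction. Without 1 library Epor ran from -0.35 to 0.37, Cd68 from -0.14 to 0.23, Raver1 from -0.029 to 0.16, Il6st from -0.048 to 0.12, Ifnar1 from -0.034 to 0.090 and Cish from -0.18 to 0.49. Of all tested genes 1222 to 1716 rose and 1409 to 1860 fell. With 1 library left out of a group of 3, the spread was estimated over fewer libraries.

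Same-numbered libraries did not deviate together (correlations across genes of -0.037, -0.023 and -0.010). This cannot show whether they were prepared in pairs, which the labels do not state. With the replicate number as a block 1375 genes rose and 1487 fell, against 1635 and 1770 without it. Jak1 (-0.33) and Stat3 (-0.44) kept their calls under the block. The STAT3 target list had 11 members lower in every setting and 1 to 2 higher, and the SOCS family 3 to 4 lower. Stat5a and Stat2 rest on few counts per library.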

Other observations

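Genes beside the members on the chromosome did not share one direction. Ptrf (now Cavin1), which encodes a coat protein of caveolae and lies 17192 bases beyond Stat3 on the same strand, was at 1227, 1120 and 1157 CPM in knockdown, against 1433, 1523, 1424 and 1564 CPM in wild-type libraries (log2 fold change -0.35, SE 0.058, adjusted p = 1.89e-05, edgeR). Ghdc, beyond Stat5b, did not pass (-0.13, adjusted p = 0.636). Around Stat6, Lrp1 (-0.60, adjusted p = 0.00144) and the overlapping Nab2 (-0.44, adjusted p = 0.0032) fell, whereas Tmem194 (now Nemp1) rose (0.41, adjusted p = 0.0333) and lost its call in 7 of 18 settings. Ak4, the nearest protein-coding gene past the start of Jak1, rose (0.53, SE 0.13, adjusted p = 0.00238), and Raver2, whose end overlaps that of Jak1, was below the filter. Beside Tyk2, Cdc37, which encodes a kinase co-chaperone, fell by 0.18 on the log2 scale (adjusted p = 0.029, lost in 5 of 18 settings) and Raver1 did not pass (0.06, adjusted p = 0.746). Beside Jak2, Rcl1 fell by 0.21 (adjusted p = 0.0187, lost in 5 of 18 settings) and Insl6 did not pass (0.53, adjusted p = 0.298).

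Of the marker lists for the line and for other cell types, Krt18 (-0.72, adjusted p = 4.62e-10, edgeR) and Krt19 (-2.03, adjusted p = 0.000811) fell, and Pdgfra (0.37, adjusted p = 0.0578) did not pass except with DESeq2 (0.37, adjusted p = 0.0323).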
